A study of Arabidopsis thaliana with 12 samples.

Results

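The 10 genes described here are the core of the iron deficiency response of Arabidopsis thaliana: the ferrous iron transporter gene IRT1 (AT4G19690), the ferric chelate reductase gene FRO2 (AT1G01580), 5 basic helix-loop-helix regulators, FIT (AT2G28160), bHLH38 (AT3G56970), bHLH39 (AT3G56980), bHLH100 (AT2G41240) and bHLH101 (AT5G04150), and 3 IRON MAN loci, AT1G47400, AT1G47395 and AT2G30766. They were taken by locus code from the 23916 genes of the table, and all 10 were among the 19984 genes that passed the filter on low values. The list was chosen with the differences between genotypes in these same TPM values in view. The levels below are therefore a description, without a test, and they are set beside the same count over all tested genes.

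Arabidopsis takes up iron from soil by reduction. Protons released by the root loosen ferric iron, FRO2 at the root surface reduces it to ferrous iron, and IRT1 carries that into the cell. FIT, which pairs with bHLH38, bHLH39, bHLH100 or bHLH101, switches both genes on in the root epidermis. The IRON MAN loci encode short peptides, moved in the phloem, with a conserved acidic end that bind the ubiquitin ligase BRUTUS (BTS), which otherwise marks the upstream bHLH factors for breakdown. When iron is short, transcripts of the pairing bHLH factors and of the IRON MAN peptides rise in root and shoot, and those of FRO2, IRT1 and FIT in the root.

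RNA sequencing was made from whole 10-day-old seedlings grown at 22 °C in 16 h of light and 8 h of dark, with 3 libraries of each of 4 genotypes. T31A is the line h3.3ko;HTR5 T31A and K36A the line h3.3ko;HTR5 K36A: both are labelled as knocked out for histone H3.3 and as carrying a mutated form of the H3.3 gene HTR5, with alanine in place of a threonine or of a lysine. The third mutant, efs, is named for EFS (also SDG8), a methyltransferase of lysine 36 of histone H3, and its lesion is not stated here. The wild type was Col, without any of these alleles. No line with an unmutated HTR5 in the same knockout was analysed here, so the mutated residue and the knockout that T31A and K36A share cannot be told apart in a comparison with Col. No iron treatment is named, and separate sowings behind the 3 libraries per genotype are not stated. The spread between them may be technical.

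The transcripts of the genes that the genotypes are named for were read first. HTR8 (AT5G10980), another H3.3 gene, had 12.4 to 18.7 TPM in T31A and 18.1 to 22.5 TPM in K36A, against 214 to 224 TPM in efs and 108 to 147 TPM in Col. HTR4 (AT4G40030) averaged 192 ± 9.05 TPM in T31A and 167 ± 10.7 TPM in K36A, against 262 ± 6.92 TPM in efs and 276 ± 37.4 TPM in Col (SD, n = 3 each). HTR5 (AT4G40040) averaged 653 ± 25.1 TPM in T31A and 591 ± 3.26 TPM in K36A, against 394 ± 7.88 TPM in efs and 329 ± 40.7 TPM in Col (SD, n = 3 each). EFS (AT1G77300) had 14.7 to 16.6 TPM in efs and 13.6 to 17.5 TPM in Col, so its level did not check that label. Recovered reads per library came to 21020260 to 34098032 in T31A, 18589077 to 23616265 in K36A, 17621000 to 20271483 in efs and 19559744 to 25533021 in Col.

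The 3 IRON MAN coding sequences are shown because these loci had the lowest levels relative to Col of all 10 genes in efs, and because 2 of them are near copies whose reads are hard to keep apart. They are given 5′ to 3′ on the plus strand from the RefSeq reference TAIR10.1, at chr1:17385818-17385970 for AT1G47400, chr1:17383117-17383269 for AT1G47395 and chr2:13108068-13108211 for AT2G30766, each in 1 exon. Capitals mark the bases that are the same in all 3 when counted back from the stop codon.
AT1G47400: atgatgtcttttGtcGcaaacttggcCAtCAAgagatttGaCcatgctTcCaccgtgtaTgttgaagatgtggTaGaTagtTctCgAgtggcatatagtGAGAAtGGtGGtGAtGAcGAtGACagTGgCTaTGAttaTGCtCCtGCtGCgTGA
AT1G47395: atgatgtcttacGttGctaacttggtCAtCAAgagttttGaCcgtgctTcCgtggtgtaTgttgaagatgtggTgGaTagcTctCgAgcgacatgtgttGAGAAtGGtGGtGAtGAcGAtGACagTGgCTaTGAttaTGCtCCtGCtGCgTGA
AT2G30766: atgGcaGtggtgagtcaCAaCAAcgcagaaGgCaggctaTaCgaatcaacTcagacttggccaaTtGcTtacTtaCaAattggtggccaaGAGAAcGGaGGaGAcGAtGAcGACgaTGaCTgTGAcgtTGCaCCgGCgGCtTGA
Of the 144 positions that all 3 share, 55 hold the same base, and 37 of these lie in the last 54 bases. AT1G47400 and AT1G47395 have the same base at 136 of 153 coding positions (88.9%) and at all of the last 54. AT2G30766 has the same base as either of them at 59 of 144 positions (41.0%). The transcripts of AT1G47400 and AT1G47395 share a run of 59 bases. Among the 45 pairs of the 10 genes, theirs is the 1 pair with a shared stretch of 50 bases. The authors' treatment of reads that match both is not given in these sources, so the split between AT1G47400 and AT1G47395 is uncertain.

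The windows of 200 bases before the annotated start are shown for the 4 bHLH genes that pair with FIT, since all 4 were highest in K36A and lowest in efs. They are given 5′ to 3′ on the minus strand of TAIR10.1, at chr3:21085246-21085445 for bHLH38, chr3:21087711-21087910 for bHLH39, chr2:17199455-17199654 for bHLH100 and chr5:1139634-1139833 for bHLH101. Capitals mark CANNTG, the E-box core that basic helix-loop-helix factors are known to bind, of which CACGTG (the G-box) is 1 form, and every match counts for both strands because each core is its own reverse complement.
bHLH38: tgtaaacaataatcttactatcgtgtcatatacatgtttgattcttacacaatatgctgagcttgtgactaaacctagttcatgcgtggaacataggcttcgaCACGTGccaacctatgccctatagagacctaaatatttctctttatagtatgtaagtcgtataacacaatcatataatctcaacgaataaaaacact
bHLH39: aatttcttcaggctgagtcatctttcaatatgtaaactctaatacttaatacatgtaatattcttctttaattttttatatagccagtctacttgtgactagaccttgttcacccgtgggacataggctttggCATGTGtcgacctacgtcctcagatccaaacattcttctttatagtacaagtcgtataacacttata
bHLH100: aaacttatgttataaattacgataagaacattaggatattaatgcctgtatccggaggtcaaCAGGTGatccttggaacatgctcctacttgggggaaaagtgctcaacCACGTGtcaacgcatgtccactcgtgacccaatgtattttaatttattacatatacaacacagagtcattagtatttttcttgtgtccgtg
bHLH101: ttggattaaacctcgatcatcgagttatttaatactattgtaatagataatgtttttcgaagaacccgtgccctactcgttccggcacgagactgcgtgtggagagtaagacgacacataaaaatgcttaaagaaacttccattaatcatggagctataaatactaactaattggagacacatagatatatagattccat
CACGTG stood 97 bases before the start of bHLH38 and 91 bases before that of bHLH100, and in none of the windows of the other 8 genes. Of 27443 such windows of protein-coding genes, 5.64% held CACGTG and 47.3% held CANNTG. The E-box core was in the windows of bHLH38, bHLH39, bHLH100 and the 3 IRON MAN loci, 6 of 10, and these letters were not in the windows of bHLH101, FIT, IRT1 and FRO2. bHLH38 and bHLH39 are neighbours on chromosome 3, as AT1G47395 and AT1G47400 are on chromosome 1.

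In K36A seedlings 9 of the 10 genes lay above Col with no overlap between the 3 libraries of each, and none lay below. Over all tested genes 27.7% were higher and 11.9% were lower in K36A in this sense. In efs 8 of 10 lay below Col and 1, FIT, above, against 19.5% lower and 35.2% higher among all tested genes. In T31A 4 of 10 lay below Col, 6 overlapped and none lay above, where 16.5% of all tested genes were lower and 23.3% higher. The median difference of the 10 genes in log2(TPM + 1) was 0.01 for T31A minus Col, 1.06 for K36A minus Col and −0.77 for efs minus Col. The same median over all tested genes was 0.039, 0.095 and 0.117 for those 3 comparisons. All 3 comparisons use the same Col libraries.

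**Figure D1:**
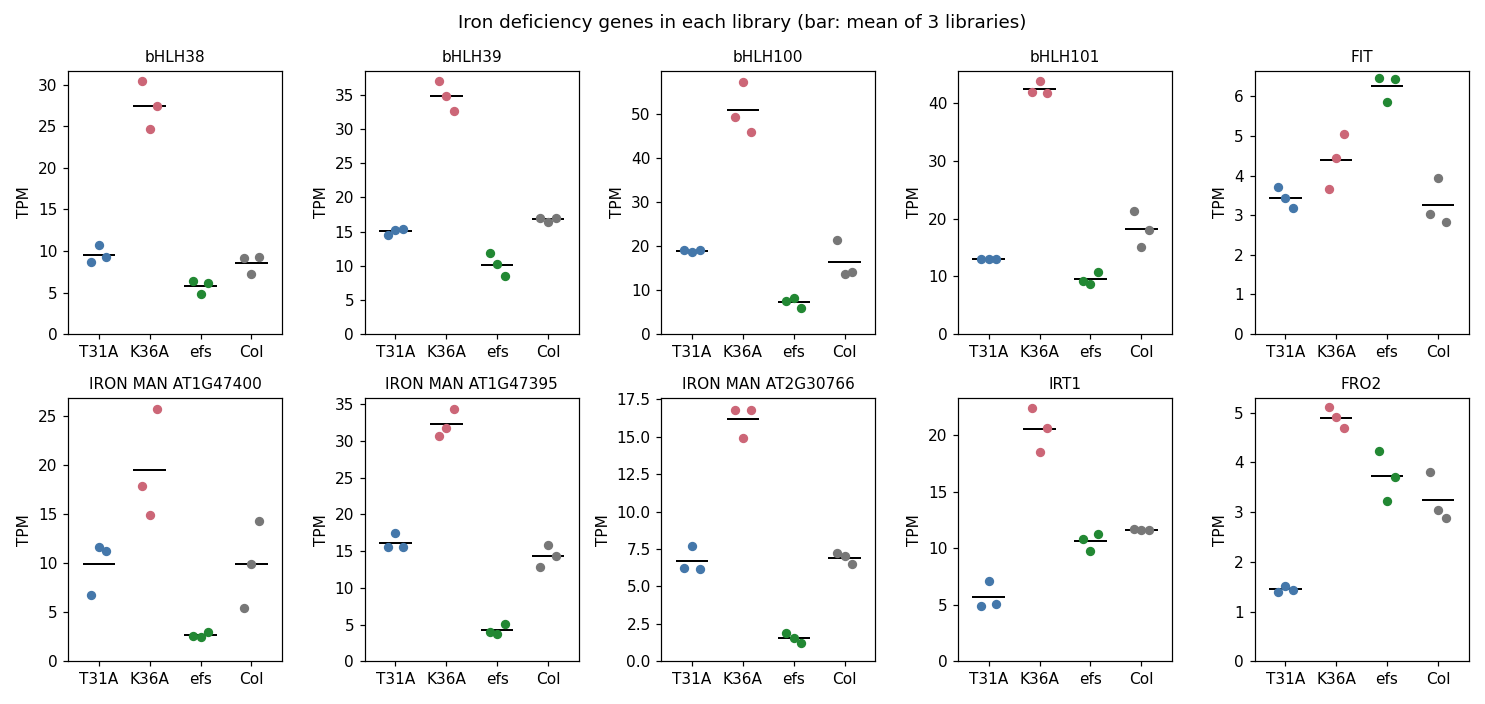
TPM of the 10 iron deficiency genes in each library, with genotype on the horizontal axis, 1 point per library and a bar at the mean of 3 libraries. K36A libraries are the highest in every panel but that of FIT, where efs is highest, and in the panels of bHLH38 to bHLH101 and of the IRON MAN loci efs is lowest.

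The 4 bHLH genes whose products pair with FIT were high in K36A and low in efs. bHLH38 had 8.71, 10.7 and 9.28 TPM in T31A, 30.4, 24.7 and 27.4 TPM in K36A, 6.34, 4.77 and 6.14 TPM in efs, and 9.17, 7.27 and 9.27 TPM in Col. Every K36A library was above every other library, the efs libraries were below all the rest, and T31A overlapped Col. Mean bHLH38 was 3.21-fold that of Col in K36A, a log2 difference of 1.58 with a standard error of 0.12, whereas efs had a log2 difference of −0.50 (SE 0.12).

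bHLH39, the neighbour of bHLH38, had 14.5, 15.2 and 15.4 TPM in T31A, 37.1, 34.9 and 32.6 TPM in K36A, 11.8, 10.2 and 8.44 TPM in efs, and 17.0, 16.4 and 17.0 TPM in Col. The order of the means was K36A, Col, T31A and efs, and no neighbours in that order overlapped. The step between T31A and Col was small, a log2 difference of −0.15 (SE 0.10), beside 1.01 (SE 0.10) for K36A minus Col and −0.69 (SE 0.10) for efs minus Col. bHLH100 had 19.2, 18.6 and 19.1 TPM in T31A, 49.3, 57.2 and 45.8 TPM in K36A, 7.53, 8.14 and 5.94 TPM in efs, and 21.3, 13.6 and 14.0 TPM in Col. K36A was 3.11-fold Col by the means (log2 difference 1.60, SE 0.15) and efs lay at 0.442 of Col (log2 difference −1.06, SE 0.15). T31A overlapped Col because of Col library 1. Without that library the log2 difference of T31A minus Col was 0.43 in place of 0.23.

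bHLH101 had 13.1 TPM in each T31A library, 41.9, 43.9 and 41.8 TPM in K36A, 9.18, 8.70 and 10.7 TPM in efs, and 21.3, 15.1 and 18.1 TPM in Col. No neighbours in the order K36A, Col, T31A and efs overlapped. Its log2 difference from Col was −0.43 (SE 0.10) in T31A, 1.20 (SE 0.10) in K36A and −0.85 (SE 0.10) in efs. It was 1 of 2 pairing bHLH genes, with bHLH39, whose T31A libraries all lay below Col. Of these 4 genes, 2 overlap a gene on the other strand, and whether strand was kept is not given. The overlap takes 386 bases (31.9%) of bHLH38, with AT3G56960, which averaged 6.02 TPM in T31A, 5.95 TPM in K36A, 6.99 TPM in efs and 8.12 TPM in Col. It takes 79 bases (6.5%) of bHLH101, with AT5G04140, at 340 ± 31 TPM in T31A, 361 ± 47 TPM in K36A, 308 ± 18.2 TPM in efs and 428 ± 33 TPM in Col (SD, n = 3 each). By the means both partners were lower than Col in T31A, K36A and efs. In efs this was also the direction of bHLH38 and bHLH101, and in T31A that of bHLH101. The part of reads from these overlaps in the bHLH levels was not tested.

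FIT, the factor that the other 4 pair with, did not follow them. It had 3.70, 3.44 and 3.18 TPM in T31A, 3.65, 4.44 and 5.05 TPM in K36A, 6.46, 5.86 and 6.43 TPM in efs, and 3.03, 3.94 and 2.83 TPM in Col. The efs libraries were above all others, at 1.91-fold Col by the means (log2 difference 0.77, SE 0.12), while K36A overlapped T31A and Col, with a log2 difference from Col of 0.34 (SE 0.12). These levels rest on 40 to 94 reads per library. efs was thus the genotype with the highest FIT and the lowest bHLH38, bHLH39, bHLH100 and bHLH101.

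The 3 IRON MAN loci, whose peptides hold back BTS, had the same order as the pairing bHLH genes at the ends, K36A highest and efs lowest. AT1G47395 had 15.6, 17.4 and 15.5 TPM in T31A, 30.6, 31.8 and 34.3 TPM in K36A, 4.01, 3.70 and 5.06 TPM in efs, and 12.8, 15.8 and 14.3 TPM in Col. AT2G30766 had 6.25, 7.68 and 6.20 TPM in T31A, 16.8, 14.9 and 16.8 TPM in K36A, 1.92, 1.59 and 1.24 TPM in efs, and 7.22, 7.05 and 6.52 TPM in Col. In both genes K36A and efs stood clear of Col on opposite sides and T31A overlapped Col.

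By the means, K36A held 2.25 times the Col level of AT1G47395 and 2.33 times that of AT2G30766, with log2 differences of 1.12 (SE 0.10) and 1.11 (SE 0.11). In efs the means were 0.297 and 0.229 of Col, with log2 differences of −1.55 (SE 0.10) and −1.63 (SE 0.11). AT1G47400 had 6.77, 11.7 and 11.3 TPM in T31A, 17.9, 14.9 and 25.7 TPM in K36A, 2.57, 2.47 and 3.02 TPM in efs, and 5.46, 9.97 and 14.3 TPM in Col. It spread most within a genotype, and its log2 differences of 0.06, 0.96 and −1.48 for T31A, K36A and efs minus Col carry a standard error of 0.27. In efs it rests on 15 to 19 reads per library. The level of AT2G30766 in efs rests on 29 to 50 reads, and 639 bases (22.0%) and 572 bases (19.7%) of its span overlap AT2G30760 and AT2G30770 on the other strand. Both partners were low, with AT2G30760 at 0.848 TPM in T31A, 1.28 TPM in K36A, 0.414 TPM in efs and 0.664 TPM in Col on average.

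**Figure D2:**
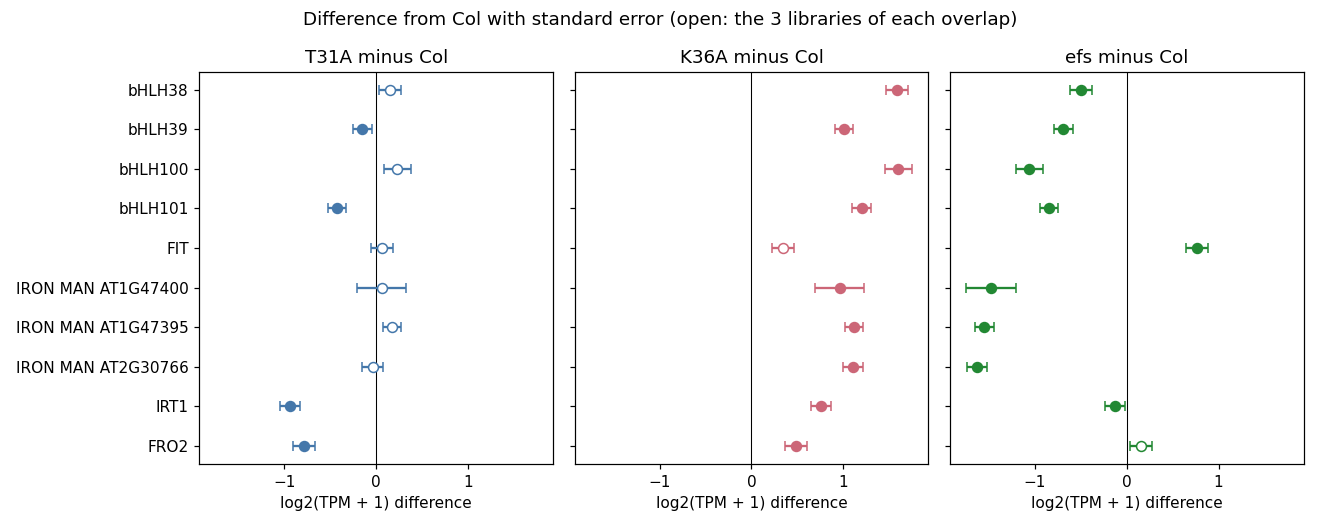
Difference from Col in log2(TPM + 1) for T31A, K36A and efs (horizontal axis) of the 10 genes, with bars for 1 standard error from the limma fit; open points mark genes whose 3 libraries overlap those of Col. In K36A all points are right of 0, between 0.34 and 1.60, in efs FIT and FRO2 are to the right and the other 8 to the left, down to −1.63, and in T31A IRT1 and FRO2 lie farthest from 0.

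The uptake genes IRT1 and FRO2 had another order, with T31A lowest. IRT1 had 4.89, 7.08 and 5.09 TPM in T31A, 22.4, 18.5 and 20.6 TPM in K36A, 10.8, 9.74 and 11.3 TPM in efs, and 11.7, 11.6 and 11.6 TPM in Col. Mean IRT1 was 51.2% lower in T31A than in Col (log2 difference −0.94, SE 0.11) and 75.6% higher in K36A (log2 difference 0.76, SE 0.11). The efs libraries were all just under Col, with a log2 difference of −0.13 (SE 0.11).

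FRO2 had 1.40, 1.51 and 1.44 TPM in T31A, 5.11, 4.91 and 4.69 TPM in K36A, 4.24, 3.23 and 3.70 TPM in efs, and 3.80, 3.04 and 2.89 TPM in Col. All T31A libraries were below and all K36A libraries above every other library, while efs overlapped Col. Its log2 difference from Col was −0.79 (SE 0.12) in T31A, 0.48 (SE 0.12) in K36A and 0.16 (SE 0.12) in efs. In T31A both uptake genes thus lay below Col, as did bHLH39 and bHLH101, while FIT, bHLH38, bHLH100 and the IRON MAN loci overlapped it. In efs both uptake genes were near Col while the pairing bHLH genes and the IRON MAN loci were below it and FIT was above it.

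Genes of the root moved between the same genotypes. In whole seedlings fewer cells of a type and less RNA per cell cannot be told apart. Of the 21 root genes listed as markers, 19 were tested by limma on log2(TPM + 1), of which 1 rose and 8 fell in T31A, 11 rose and none fell in K36A, and 5 rose and 1 fell in efs, at an adjusted p under 0.05. Among all tested genes 15.7% rose and 11.1% fell in T31A, 22.6% rose and 8.9% fell in K36A, and 31.4% rose and 17.4% fell in efs. The median log2 difference of the root list was −0.23 for T31A, 0.48 for K36A and 0.24 for efs. Examples are PER64, a peroxidase of the endodermis, with 22.7 ± 0.692 TPM in T31A, 41.0 ± 3.02 TPM in K36A, 31.1 ± 3.80 TPM in efs and 24.0 ± 1.65 TPM in Col, and PHT1;1, a phosphate transporter, with 56.8 ± 2.21 TPM in T31A, 67.2 ± 3.27 TPM in K36A, 80.6 ± 5.10 TPM in efs and 48.0 ± 4.70 TPM in Col (SD, n = 3 each).

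The summed level of 20 of the 21 root genes, without the abundant PYK10, was 283.8 to 311.9 TPM in T31A, 492.7 to 519.6 TPM in K36A, 419.1 to 436.1 TPM in efs and 300.0 to 433.5 TPM in Col. With PYK10 it was 2305 to 2407 TPM in T31A, 3018 to 3118 TPM in K36A, 2880 to 2942 TPM in efs and 2762 to 3021 TPM in Col. The 5 endodermis genes among them summed to 82.0 to 89.3 TPM in T31A, 134 to 140 TPM in K36A, 108 to 119 TPM in efs and 81.2 to 114 TPM in Col, so that T31A overlapped Col. The 6 root hair genes among them summed to 55.2 to 65.2 TPM in T31A, 162 to 191 TPM in K36A, 135 to 142 TPM in efs and 83.2 to 144 TPM in Col. Both groups were made after the values were seen, so a likeness of their levels to those of IRT1 and FRO2 is not independent support. As a percentage of the Col mean, the 20 genes stood at 84.1% and the root hair genes at 54.8% in T31A, where IRT1 stood at 48.7% and FRO2 at 44.8%. In K36A the 20 genes stood at 142.7% and the root hair genes at 159.7%, beside 176.0% for IRT1 and 151.3% for FRO2. In efs the 20 genes stood at 120.7% and the root hair genes at 125.3%, beside 91.1% for IRT1 and 114.9% for FRO2. NRT2.1, a nitrate transporter, was listed at 0 in 2 libraries and no other root marker was at 0. The part of the root genes in the levels of IRT1, FRO2 and FIT was not tested.

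Col library 1 stood apart from the other Col libraries in the root genes, with 433.5 TPM for the 20 genes against 300.0 and 327.2 TPM, and it raises the Col mean behind these percentages. Without it the number of root genes that rose was 15 for K36A and 11 for efs, and 6 fell in T31A. Without some other libraries the counts in K36A and efs moved the other way, and that in T31A moved the same way. The number that rose in K36A was 6 without Col library 3 and 7 without Col library 2, K36A library 1 or K36A library 2, the number that rose in efs was 3 without Col library 2, and the number that fell in T31A was 5 without T31A library 3. In K36A 7 also rose when only the 6 libraries compared were fitted. Without Col library 1 the log2 difference of IRT1 from Col was −0.93 for T31A, 0.76 for K36A and −0.12 for efs. That of FRO2 was −0.69 for T31A, 0.58 for K36A and 0.25 for efs. Both genes kept their direction in each mutant. Only FRO2 in efs had libraries that overlapped Col, so elsewhere leaving out a library could not change the direction.

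**Figure D3:**
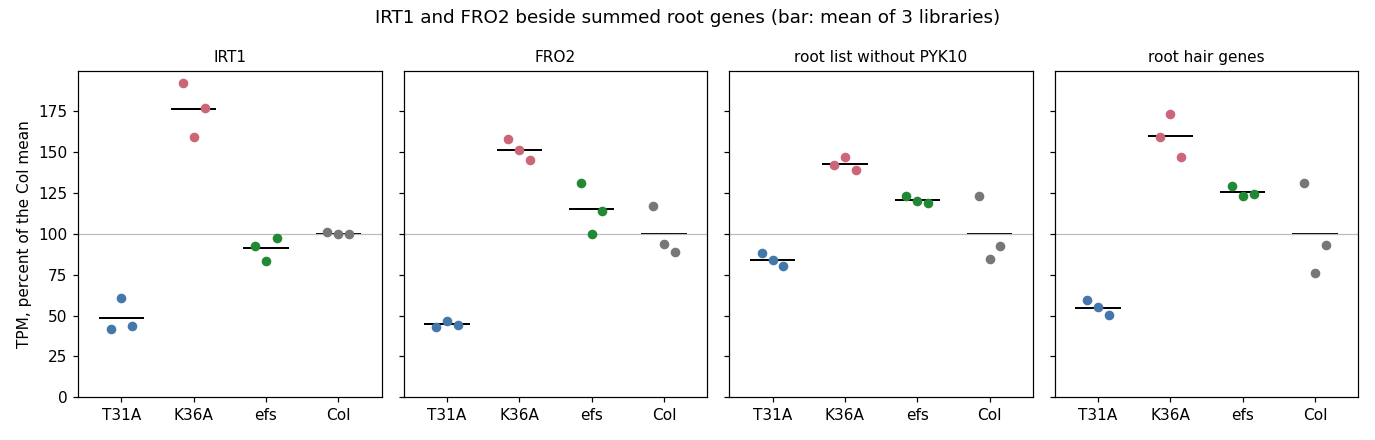
IRT1, FRO2, the 20 root genes without PYK10 and the 6 root hair genes among them in each library, as TPM in percent of the Col mean (vertical axis), with a bar at the mean of 3 libraries. By the mean, T31A is lowest and K36A highest in all 4 panels. In the panel of the 20 root genes Col library 2 (84.8%) lies below T31A library 1 (88.2%). Col library 1 stands above the other Col libraries in the 2 panels of root genes. The root hair genes were grouped after the values were seen.

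Markers of phloem, through which IRON MAN peptides move, and of green tissue were read in the same way. Over all tested genes the share called higher was 15.7% for T31A, 22.6% for K36A and 31.4% for efs. The share called lower was 11.1%, 8.9% and 17.4% for the same genotypes. Of 4 phloem genes, none rose and 1 fell in T31A, and 1 rose and none fell in K36A and in efs. Counts this small do not set these 4 genes apart from those shares. Their summed level was 216.6 to 239.0 TPM in T31A, 231.4 to 251.0 TPM in K36A, 268.2 to 272.2 TPM in efs and 238.6 to 253.4 TPM in Col. The proton pump gene AHA3 of the phloem averaged 62.8 ± 6.09 TPM in T31A, 68.1 ± 7.31 TPM in K36A, 87.7 ± 5.42 TPM in efs and 67.1 ± 6.73 TPM in Col, and the phloem regulator gene APL averaged 13.9 ± 0.719 TPM in T31A, 20.5 ± 2.76 TPM in K36A, 22.3 ± 1.71 TPM in efs and 19.4 ± 2.53 TPM in Col (SD, n = 3 each). Of 10 genes of green tissue none rose, and the number that fell was 2 for T31A, 6 for K36A and 8 for efs. With quantile normalization the number that fell was 2 for T31A, 1 for K36A and 2 for efs, and with only the 6 libraries compared it was 2 for K36A. Without Col library 3 it was 5 for efs, so these counts depend on the setting. Their sum was 35780 to 37910 TPM in T31A, 34220 to 36100 TPM in K36A, 32420 to 33810 TPM in efs and 39190 to 42860 TPM in Col, and LHCB2.1, which encodes an antenna protein of photosystem II, had 1680 ± 43.1 TPM in T31A, 1828 ± 20.9 TPM in K36A, 1155 ± 7.29 TPM in efs and 2768 ± 131 TPM in Col. CAB3, for another antenna protein, had 4855 ± 264 TPM in T31A, 5471 ± 152 TPM in K36A, 3508 ± 179 TPM in efs and 5345 ± 485 TPM in Col (SD, n = 3 each). Both antenna genes belong to families of near copies, so their own levels are uncertain. The part of these tissues in the levels of the iron genes was not tested.

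Other genes of iron homeostasis were read from lists made by function. Of 65 such genes 59 were in the table and 52 were tested. By limma, 5 rose and 12 fell in T31A, 20 rose and 7 fell in K36A, and 15 rose and 19 fell in efs. The share that rose was below that of all tested genes in T31A and efs and above it in K36A, and the share that fell was above that of all tested genes in each. Centring on the median gene by median-of-ratios factors changed these counts: 4 rose and 15 fell in T31A, the numbers for K36A were 16 and 9, and those for efs 5 and 20.

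**Figure D4:**
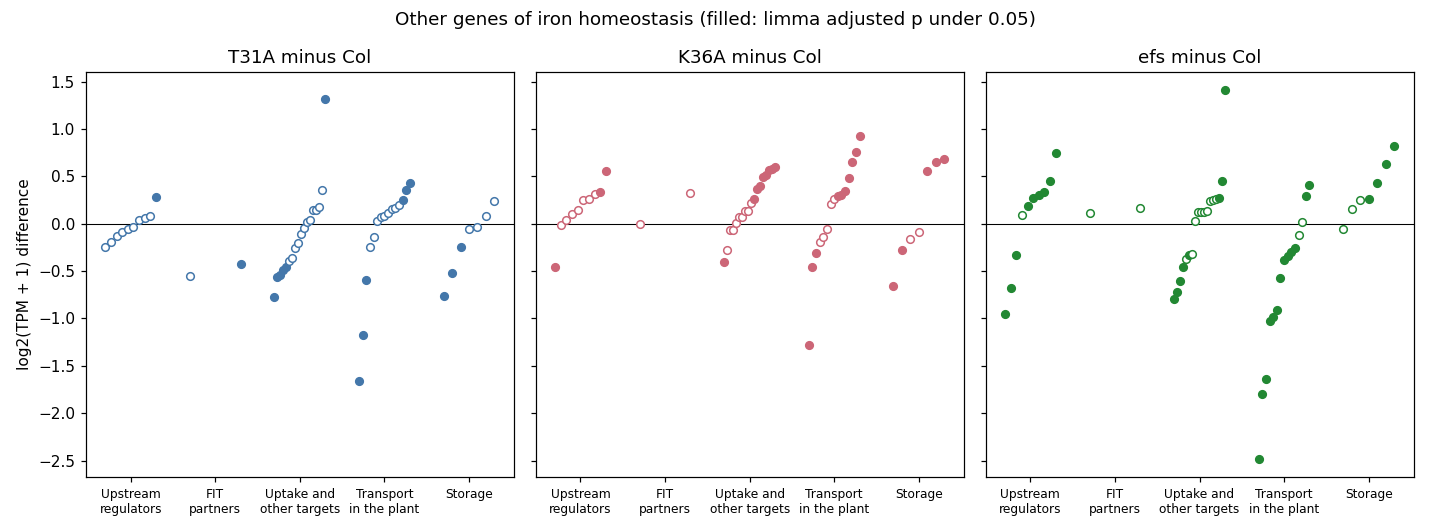
Difference from Col in log2(TPM + 1) (vertical axis) of the 52 other iron genes tested, grouped by role along the horizontal axis, for T31A, K36A and efs; filled points had a limma adjusted p under 0.05. The genes for transport within the plant reach −2.48 in efs, and 11 of those 15 are filled and below 0 there.

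The upstream regulators act on the pairing bHLH genes or restrain that step. Of the 10, all tested, 1 rose in T31A with none falling, 2 rose and 1 fell in K36A, and 6 rose and 3 fell in efs. Of all tested genes 15.7% rose and 11.1% fell in T31A, and 22.6% rose and 8.9% fell in K36A. In T31A and K36A the counts of this list were near those shares. In efs 31.4% of all tested genes rose and 17.4% fell. With median-of-ratios factors 1 in place of 6 rose in efs, with quantile normalization 2, and without efs library 3 also 2. Without efs library 1 or Col library 3 it was 3. The fall of 3 in efs was the same count under every alternative run. In K36A 4 in place of 2 rose without Col library 1. bHLH121, a partner of the upstream bHLH factors, rose to 92.4 ± 0.920 TPM in efs, against 54.8 ± 9.12 TPM in Col (SD, n = 3 each; log2 difference 0.75, limma adjusted p = 6.7e-06). bHLH34, one of the upstream factors, fell to 4.20 ± 0.438 TPM in efs, against 7.45 ± 1.62 TPM in Col (log2 difference −0.68, limma adjusted p = 7.7e-04). PYE, a repressor that is itself induced by iron shortage, fell to 6.84 ± 0.858 TPM in efs, against 14.1 ± 1.77 TPM in Col (log2 difference −0.95, limma adjusted p = 8.1e-06), and had 15.0 ± 1.44 TPM in T31A and 17.1 ± 1.73 TPM in K36A.

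BTS, the ubiquitin ligase that IRON MAN peptides bind, rose to 99.7 ± 14.7 TPM in K36A (log2 difference 0.56, limma adjusted p = 5.8e-04) and fell to 53.2 ± 1.26 TPM in efs (log2 difference −0.33, limma adjusted p = 0.01), against 67.0 ± 2.80 TPM in Col. It had 69.3 ± 5.59 TPM in T31A. Of the other factors that bind FIT, 4 were listed and 2 tested. NAI1 fell to 32.1 ± 1.24 TPM in T31A, against 43.3 ± 3.18 TPM in Col (log2 difference −0.42, limma adjusted p = 3.0e-04). The other, AT4G37850, had 0.617 ± 0.297 TPM in T31A, 1.95 ± 0.342 TPM in K36A, 1.79 ± 1.19 TPM in efs and 1.34 ± 0.0866 TPM in Col, and none of its differences from Col passed the test. It was lower in T31A than in K36A (log2 difference −0.88, limma adjusted p = 0.01) and than in efs (log2 difference −0.72, limma adjusted p = 0.021).

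Of 18 other genes that respond with the uptake genes, 1 rose and 5 fell in T31A, 8 rose and 1 fell in K36A, and 3 rose and 5 fell in efs. Of all tested genes 15.7% rose and 11.1% fell in T31A, and in K36A 22.6% rose and 8.9% fell. In efs 31.4% of all tested genes rose and 17.4% fell, so the share of this list that rose there was lower. With quantile normalization 4 in place of 8 rose in K36A, and without Col library 2 it was 5. In efs 1 in place of 3 rose with median-of-ratios factors, with quantile normalization and without efs library 2, efs library 3 or Col library 2, and in T31A 3 in place of 1 rose without Col library 1. IRT2, a near relative that lies beside IRT1 on chromosome 4, had 2.80 ± 0.0756 TPM in T31A, 8.36 ± 1.43 TPM in K36A, 5.59 ± 0.0649 TPM in efs and 5.48 ± 0.479 TPM in Col (SD, n = 3 each). It fell in T31A (log2 difference −0.77, limma adjusted p = 1.8e-04) and rose in K36A (log2 difference 0.52, limma adjusted p = 0.0033). F6'H1, the enzyme that starts the synthesis of scopoletin-type coumarins, which the root releases to mobilise iron, did not follow IRT1 in T31A. It averaged 36.7 ± 3.33 TPM in T31A, 18.9 ± 1.66 TPM in K36A, 38.8 ± 2.07 TPM in efs and 14.2 ± 2.84 TPM in Col, and rose by 1.32 in T31A (limma adjusted p = 1.5e-06), 0.40 in K36A (limma adjusted p = 0.017) and 1.41 in efs (limma adjusted p = 2.3e-07) on the log2 scale. The rise in K36A did not pass with median-of-ratios factors (adjusted p = 0.0836).

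ORG1, a kinase-like gene of the same response, rose to 143 ± 5.07 TPM in K36A (log2 difference 0.37, limma adjusted p = 1.8e-04) and fell to 63.3 ± 0.312 TPM in efs (log2 difference −0.79, limma adjusted p = 2.8e-08), against 110 ± 3.27 TPM in Col. Its level in T31A was 122 ± 3.89 TPM. NAS1, which makes the metal chelator nicotianamine, fell in every mutant, with 90.4 ± 2.23 TPM in T31A, 96.1 ± 4.63 TPM in K36A, 76.9 ± 2.26 TPM in efs and 128 ± 18.1 TPM in Col (SD, n = 3 each). Its limma adjusted p was 5.1e-04 for T31A, 0.0022 for K36A and 5.4e-06 for efs, with log2 differences of −0.49, −0.40 and −0.72 for these.

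Of 15 genes for the movement of iron within the plant, 3 rose and 3 fell in T31A, 7 rose and 3 fell in K36A, and 2 rose and 11 fell in efs, where 17.4% of all tested genes fell. Among all tested genes 15.7% rose and 11.1% fell in T31A, 22.6% rose and 8.9% fell in K36A, and 31.4% rose in efs. Between 9 and 11 of the 15 genes fell in efs under every alternative run. In T31A 5 in place of 3 fell with quantile normalization or median-of-ratios factors. OPT3, a transporter that loads iron into the phloem, had 167 ± 10.3 TPM in T31A, 196 ± 3.41 TPM in K36A, 60.1 ± 3.17 TPM in efs and 124 ± 8.07 TPM in Col. It rose by 0.43 in T31A (limma adjusted p = 3.2e-04) and by 0.65 in K36A (limma adjusted p = 8.6e-06) and fell by 1.03 in efs (limma adjusted p = 1.7e-08) on the log2 scale. NAS4, another nicotianamine synthase, fell to 8.37 ± 1.01 TPM in efs, against 31.6 ± 3.96 TPM in Col (log2 difference −1.80, limma adjusted p = 2.6e-09), with 26.6 ± 1.77 TPM in T31A and 28.5 ± 1.19 TPM in K36A. YSL2, which moves metal chelates between cells, fell to 31.2 ± 1.23 TPM in efs, against 62.7 ± 3.80 TPM in Col (log2 difference −0.98, limma adjusted p = 9.1e-08).

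FRO7, the ferric reductase of the chloroplast, showed the widest fall among the 52 in T31A and in efs. In K36A the widest fall was that of another gene of this list, with a log2 difference of −1.28. FRO7 had 17.6 ± 2.02 TPM in T31A, 46.6 ± 5.98 TPM in K36A, 9.61 ± 1.44 TPM in efs and 57.7 ± 2.08 TPM in Col (SD, n = 3 each). The log2 difference was −1.66 in T31A (limma adjusted p = 9.2e-08) and −2.48 in efs (limma adjusted p = 3.9e-10). In K36A it was −0.31 with a limma adjusted p of 0.048, a call that 9 of the alternative settings did not keep.

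Of the genes for storage, 7 of 10 listed were tested, of which none rose and 3 fell in T31A, 3 rose and 2 fell in K36A, and 4 rose and none fell in efs, where 31.4% of all tested genes rose. Among all tested genes 15.7% rose and 11.1% fell in T31A, 22.6% rose and 8.9% fell in K36A, and 17.4% fell in efs. In efs 2 in place of 4 storage genes rose with median-of-ratios factors, with quantile normalization and without efs library 1. In T31A 1 fell and 1 rose without Col library 3, and in K36A 1 in place of 2 fell without K36A library 3. FER1, the ferritin that rises with iron supply, fell to 60.2 ± 4.49 TPM in K36A, against 95.5 ± 4.69 TPM in Col (log2 difference −0.66, limma adjusted p = 9.6e-06), and had 92.1 ± 2.98 TPM in T31A and 107 ± 5.52 TPM in efs. VTL1, VTL2 and VTL5 belong to the family of vacuolar iron transporter-like proteins. VTL5 had 26.3 ± 0.672 TPM in T31A, 46.8 ± 1.87 TPM in K36A, 56.0 ± 4.84 TPM in efs and 31.3 ± 1.35 TPM in Col, a fall in T31A (limma adjusted p = 0.02) and a rise in K36A (limma adjusted p = 5.2e-05) and efs (limma adjusted p = 3.4e-07). VTL1 had 1.35 ± 0.268 TPM in T31A, 4.43 ± 0.660 TPM in K36A, 4.26 ± 0.787 TPM in efs and 2.41 ± 0.627 TPM in Col. It fell in T31A (limma adjusted p = 0.024) and rose in K36A (limma adjusted p = 0.0052) and efs (limma adjusted p = 0.0045). VTL2 had 2.91 ± 0.575 TPM in T31A, 5.29 ± 1.57 TPM in K36A, 7.87 ± 0.798 TPM in efs and 5.58 ± 0.665 TPM in Col. It fell in T31A (limma adjusted p = 0.0032). Its rise in efs (limma adjusted p = 0.039) did not pass with median-of-ratios factors (adjusted p = 0.124) or quantile normalization (adjusted p = 0.123). Nor did this rise pass with voom, with no filter, or without efs library 1, 2 or 3 or Col library 1 or 2. The T31A calls of VTL1 and VTL5 were lost without Col library 3 and under some other alternatives. The spans of F6'H1, YSL2, FER1 and PER64 overlap another annotated gene, AT3G13620, AT5G24390, AT5G01595 and AT5G42190 in that order, and reads from the overlap cannot be assigned without strand.

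The mutants also differed from each other. In T31A minus K36A 9 of the 10 genes lay lower with no overlap, all but FIT, and none higher, where 28.2% of all tested genes were lower and 16.5% higher. The log2 differences ran from −1.70 for IRT1 to −0.27 for FIT, with a median of −1.21 beside −0.042 over all tested genes. Both lines carry the knockout label, so it is shared in this comparison, although the number of independent lines behind each is not stated. Mean IRT1 was 0.278 and mean FRO2 0.296 of the K36A level in T31A, and mean bHLH101 0.309.

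K36A and efs, both tied to lysine 36 of histone H3, stood at opposite ends of the 4 genotypes for the pairing bHLH genes and the IRON MAN loci, but not for IRT1, FRO2 and FIT. In K36A minus efs 9 of 10 genes lay higher and 1, FIT, lower, where 26.3% of all tested genes were higher and 25% lower. The median log2 difference was 2.06, beside −0.001 over all tested genes. By the means K36A had 10.2 times the AT2G30766, 7.58 times the AT1G47395, 7.26 times the AT1G47400 and 7.04 times the bHLH100 of efs, but 1.93 times the IRT1 and 1.32 times the FRO2. The order of T31A and efs was not the same in all 10 genes. In T31A minus efs the 4 pairing bHLH genes and the 3 IRON MAN loci lay higher and IRT1, FRO2 and FIT lower, 7 and 3 of 10 with no overlap, where 23.5% of all tested genes were higher and 33.3% lower. These comparisons share libraries with those against Col.

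Across the 12 libraries the 4 pairing bHLH genes had Pearson correlations of log2(TPM + 1) between 0.93 and 0.96 with each other and between 0.80 and 0.96 with the IRON MAN loci. IRT1 and FRO2 had 0.93 with each other, and FIT had 0.22 with IRT1 and −0.33 with bHLH39. These are descriptions over 4 genotypes with 3 libraries each, and the points of a genotype share its background. Outside the 10 genes, those most like IRT1 were AT5G35926 (r = 0.973), AT3G14560 (r = 0.962), AT5G26220, IRT2 and G6PD1 (r = 0.959 each). AT5G35926 was near the floor, at 0.358 TPM in T31A, 1.5 TPM in K36A, 0.774 TPM in efs and 0.924 TPM in Col on average. It passed the filter on low values through its K36A libraries, so its correlation is of little weight. Those most like bHLH39 were AT2G42560 (r = 0.981), MLS (r = 0.976), AT1G58170 (r = 0.975), ELIP1 (r = 0.974) and AT2G33250 (r = 0.970). ELIP1, an early light-induced protein gene, averaged 2.81 ± 0.498 TPM in T31A, 9.00 ± 1.60 TPM in K36A, 1.05 ± 0.268 TPM in efs and 2.83 ± 0.400 TPM in Col (SD, n = 3 each). Those most like AT1G47400 were APA1 (r = 0.971), NF-YA10 (r = 0.969), LIL3:2 (r = 0.959), AT2G20830 (r = 0.952) and AT3G50210 (r = 0.949).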

How the data were processed

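The deposited table gives TPM per gene, although the authors' column names call them gene counts: each of the 12 columns sums to the same total. Per the submitters' processing notes TAIR10 was the build, and DESeq2 1.26.0, HISAT2 2.1.10 and fastp 0.20.1 were run; the counter is not given in these sources. Multiplied by the span of the gene in the reference TAIR10.1, introns included, the values were whole reads in at least 99.98% of 23745 genes per library (tolerance 0.01). Long introns thus lower a gene's TPM, and levels are compared between libraries within a gene.

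Genes with at least 1 TPM in at least 3 of 12 libraries (19984) were fitted with limma 3.58.1 (R 4.3.3) as log2(TPM + 1) over the 4 genotypes, with a mean-dependent prior variance and no term for replicate number. P-values are two-sided with Benjamini-Hochberg adjustment over all tested genes, a gene is called under 0.05, and they measure only the spread between these libraries. Fold differences on this scale understate low genes. The fit was tested on simulated data. Members and gene lists were chosen with earlier results of these data known, so members carry no p-value. Named genes are, per iron list, up to 4 with the smallest adjusted p against Col (2 per marker list), and the 5 genes with the highest correlation to IRT1, bHLH39 and AT1G47400. Of the wider lists, 5 further IRON MAN loci were not analysed here. Alternatives were other pseudocounts (0.1, 5), filters, median-of-ratios factors, quantile normalization, 6-library fits, a replicate block, leaving out each library, and limma-voom on recovered reads. Read numbers carry counting error only. Positions and sequences come from TAIR10.1; the deposited table holds no coordinates.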

Additional observations from a re-analysis of the deposited data

How the results depend on the processing

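None of the 10 genes changed direction, where its libraries did not overlap, under any pseudocount, filter, scaling, block, voom fit or left-out library. For such genes a pseudocount, a filter, the block or a left-out library cannot change the direction. Only the scalings, quantile normalization and voom could have changed it. With a pseudocount of 5 the log2 difference of AT2G30766 in efs minus Col shrank to −0.86 and that of FRO2 in T31A minus Col to −0.35, and with voom on recovered reads they were −2.14 and −1.16. FIT and FRO2 average under 5 TPM and gave no value under the mean filter. AT1G47400, the most variable, ranged from −0.28 to 0.34 in T31A minus Col as single libraries were left out. Centring moves the median gene by up to 0.1 and the split of calls: with median-of-ratios factors 45%, 46.3% and 47.4% of called genes were higher in T31A, K36A and efs minus Col, against 58.5%, 71.7% and 64.4%. With only the 6 libraries compared, 4137 genes were called in K36A minus Col, against 6296. Leaving out single libraries gave 3926 to 5668 called genes in T31A, 4859 to 7301 in K36A and 8227 to 10336 in efs minus Col, and 14 to 17, 22 to 29 and 25 to 33 of the other iron genes. The calls of VTL1, VTL5 and PHT1;1 in T31A, of FRO7 and F6'H1 in K36A and of VTL2 in efs were lost under some alternatives; the cause was not tested. Deviations of same-numbered libraries correlated at −0.244 to 0.359 over 18 pairs, 6 of them over 0.1. In 7 of the 18 pairs the correlation was best with the own number. Every pair of efs with Col was among these (0.118, 0.041 and 0.219), which was seen only after the values were read. With 3 candidate numbers per pair, the own number is often best without any pairing. These values therefore do not decide whether libraries were paired by number. With the replicate block 5316, 6252 and 9717 genes were called in T31A, K36A and efs minus Col, and 17, 26 and 33 other iron genes. Low read numbers limit FIT and the IRON MAN loci in efs.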
